A study of Mus musculus with 32 samples.

Results

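The genes described here are 10 genes of extracellular purine signalling and adenosine handling in mouse spinal cord: the nucleotide receptors P2ry1, P2ry14, P2rx4 and P2rx7, the adenosine receptors Adora1, Adora2a and Adora2b, the ectonucleotidases Entpd2 and Nt5e, and the adenosine kinase Adk. They were chosen by symbol, and all 10 have a row among the 55938 genes of the deposited table. The mice carried Aldh1l1-CreER, spelled Aldhl1l-CreER in the genotype label, together with Rpl22-HA. In this design cells in which the Aldh1l1 promoter drives an active Cre carry an HA tag on the ribosomal protein Rpl22, and an anti-HA pull-down recovers the RNA bound to their ribosomes. Every group shares this genotype, and no group without Cre or without the tag was analysed here. Trap libraries hold the pulled-down RNA and Input libraries the RNA of homogenised lumbar spinal cord, which contains all cell types. Mice of both sexes were uninjured or were sampled 3, 5 or 7 weeks after a fracture, a model of Complex Regional Pain Syndrome. Each of the 8 combinations of sex and state had 3 Trap libraries and 1 Input library, 24 and 8 in all. The labels used here give no ages and do not tell whether libraries of a group come from different mice. The p-values here therefore speak only of library-to-library spread, which may be technical.

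Extracellular purine signalling starts when cells release ATP, which opens P2X channels and, as ATP or ADP, activates G-protein-coupled P2Y receptors. Ectonucleotidases on the cell surface remove phosphates step by step until adenosine is left, which acts on its own G-protein-coupled receptors. Adenosine taken up into cells is turned back into AMP by adenosine kinase, an enzyme found mainly in astrocytes in the adult brain, and spinal adenosine is known for its role in dampening pain signals.

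Total estimated counts ran from 17124034 to 23189228 in the Trap and from 17981133 to 22907909 in the Input libraries. Levels are given as CPM, counts scaled to a common library total with edgeR's TMM factors. At these totals a level of 1 CPM corresponds to about 21 counts. The pull-down was checked against cell markers: all 17 astrocyte markers were higher in Trap than in Input (median log2 difference 3.28), and all 14 neuron markers, 14 microglia markers, 12 oligodendrocyte markers and 10 endothelial markers were lower (medians -4.19, -3.94, -2.52 and -2.84). Their summed levels in Trap did not reach 0: microglia markers summed to 55.6 to 78.6 CPM in Trap and 284.9 to 412.1 CPM in Input, with Csf1r among the most abundant in Input. Other lists were mixed or went the other way: of 8 ependymal markers 6 were higher in Trap and 2 lower, of 12 mural and meningeal fibroblast markers 3 were higher and 9 lower, of 8 oligodendrocyte precursor markers 3 were higher and 5 lower, of 6 tested Schwann cell markers 1 was higher and 3 were lower, and all 7 tested blood cell markers were higher. Female 3 weeks replicate 3 and male 7 weeks replicate 2 stood apart from the other Trap libraries of their groups, and some values are also given without both. The measure shown here is chi-square per degree of freedom between 2 libraries. It was 31.9 and 49.9 for the first, against 15.1 for the remaining pair. For the second it was 89.3 and 60.2, against 14.4. Female 5 weeks replicate 3 lay nearly as far from its group as the first (30.9 and 47.3, against 12.4), but was kept in those values.

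The sequences just before the start of 4 of the genes are shown, 3 higher and 1 lower in Trap: Entpd2, Adora2b and P2ry1 had the 3 largest Trap over Input differences, and P2rx4 was lower in Trap, though less so than P2ry14 and Nt5e, whose windows are described by their counts. Each run is the 250 bases before the RefSeq start in GRCm38.p6, on the gene's own strand, which is the plus strand for all 4. The windows are chr2:25395624-25395873 for Entpd2, chr11:62248734-62248983 for Adora2b, chr3:61002535-61002784 for P2ry1 and chr5:122707294-122707543 for P2rx4. Capitals mark matches to the GC box letters GGGCGG on either strand.
Entpd2: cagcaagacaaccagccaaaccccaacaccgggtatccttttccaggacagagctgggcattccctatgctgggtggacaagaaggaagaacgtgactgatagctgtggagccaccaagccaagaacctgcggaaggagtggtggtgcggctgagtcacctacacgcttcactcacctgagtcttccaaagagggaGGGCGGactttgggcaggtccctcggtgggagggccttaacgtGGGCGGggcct
Adora2b: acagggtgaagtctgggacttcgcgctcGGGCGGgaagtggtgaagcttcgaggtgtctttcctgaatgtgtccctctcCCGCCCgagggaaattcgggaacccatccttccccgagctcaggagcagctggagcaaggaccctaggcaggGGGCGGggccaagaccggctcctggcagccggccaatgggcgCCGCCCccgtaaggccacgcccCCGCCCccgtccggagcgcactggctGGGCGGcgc
P2ry1: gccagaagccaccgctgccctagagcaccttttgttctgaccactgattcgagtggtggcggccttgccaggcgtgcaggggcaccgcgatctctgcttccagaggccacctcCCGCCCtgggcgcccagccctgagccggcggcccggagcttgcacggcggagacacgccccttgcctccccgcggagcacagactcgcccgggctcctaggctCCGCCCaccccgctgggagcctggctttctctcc
P2rx4: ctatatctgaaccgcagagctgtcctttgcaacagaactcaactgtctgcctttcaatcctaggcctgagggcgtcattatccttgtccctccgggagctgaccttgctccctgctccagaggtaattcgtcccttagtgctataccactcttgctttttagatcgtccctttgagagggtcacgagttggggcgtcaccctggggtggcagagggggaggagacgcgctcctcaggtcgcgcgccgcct
The GC box letters matched 2 times before Entpd2, 6 times before Adora2b, 2 times before P2ry1 and 0 times before P2rx4, while 32.7% of all 32851 RefSeq windows of that length held at least 1 match. GC content was 59.2%, 69.6%, 70.8% and 57.2% in that order, against a median of 52.4% over all windows. CG dinucleotides numbered 9, 22, 20 and 13, against a median of 6. The TATA box letters TATAAA matched in none of the 4 windows (12.4% of all windows held 1). The letters TTGGC, known from sites of nuclear factor I, matched 2 times before Entpd2 and 2 times before Adora2b and not before P2ry1 or P2rx4, and 41.5% of all windows held a match on either strand. They also matched 2 times in each window of Adk and 1, 0, 1 and 0 times in the windows of P2ry14, lower in Trap. The windows of Adora1, P2rx7 and Nt5e held 0 matches to these letters. The GC box matches did not follow the direction of the Trap difference. The window of Nt5e, also lower in Trap, held 4 GC box matches, 21 CG dinucleotides and a GC content of 72%, while the 4 windows of P2ry14 held 0 GC box matches. The 2 windows of Adk held 2 and 3 matches, those of Adora1 3 and 0, and those of P2rx7 2 and 0. These are matches of letters, and no binding was measured. Windows were found for 9 of the 10 genes, 15 windows in all.

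Setting Trap beside Input addressed which of these transcripts were more or less abundant on astrocyte ribosomes than in the whole tissue. Of the 10 genes 6 were higher in Trap, 3 were lower and P2rx7 did not pass the test (edgeR quasi-likelihood test, adjusted p under 0.05 over 15913 genes). Among all genes tested 44.4% were higher and 43.7% lower, so these counts are near the background. The median size of the log2 difference, without its sign, was 1.63 over the 10 genes and 0.95 over all genes, with 5 of the 10 (Adora2a, Nt5e, Adora1, P2rx4 and P2rx7) below the median of all genes. Entpd2, Adora2b, P2ry1 and Adk lay between 5.70-fold and 11.5-fold higher in Trap, Adora2a and Adora1 were raised by 1.87-fold and 1.68-fold, and P2ry14 was at 0.194 of its Input level.

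**Figure D1:**
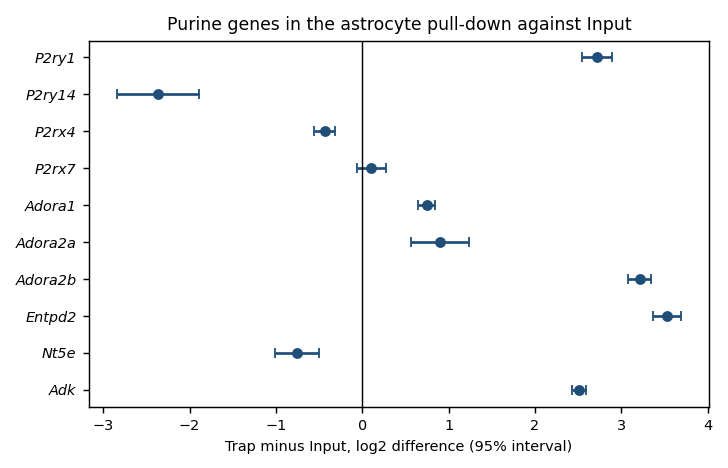
Difference between 24 Trap and 8 Input libraries for each of the 10 genes, as log2 with its 95% interval, adjusted for sex and injury state. Entpd2, Adora2b, P2ry1 and Adk lie at 2.51 or higher, P2rx7 spans 0, and P2rx4, Nt5e and P2ry14 lie below 0.

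Among the P2Y receptors P2ry1, a receptor for ADP (chr3:61002795-61008982, GRCm38), measured 68.2 to 108.1 CPM in the Trap libraries with a median of 82.3, and 9.24 to 15.8 CPM in the Input libraries with a median of 12.3. The libraries did not overlap, and the log2 difference was 2.71 ± 0.086 (SE; adjusted p = 2.76e-26 with edgeR). In the annotation 992 of its exon bases are shared with Gm37035, an antisense gene on the opposite strand, and whether the counting used strand is not given in the sources used here. For P2ry1 93.75% of the values were not whole, and which genes shared those reads was not traced. P2ry14, a receptor for UDP-sugars (chr3:59113855-59153618), was at the edge of detection in Trap with 0 to 7 counts per library. In 3 of the 24 Trap libraries no count was found, which allows up to 0.145 to 0.183 CPM. In Input it measured 0.58 to 1.16 CPM, so all 24 Trap libraries, with at most 0.39 CPM, were below all 8 Input libraries, and the log2 difference was -2.36 ± 0.235.

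Of the other P2Y receptors with a row, 4 of 6 were tested, 0 were higher in Trap and 3 were lower, beside 44.4% and 43.7% of all genes tested. P2ry13 and P2ry12, ADP receptors typical of microglia, were lower by -4.30 ± 0.142 and -2.48 ± 0.098 on the log2 scale, and P2ry6, a UDP receptor, by -1.85 ± 0.172. P2ry12 averaged 12.4 ± 2.81 CPM in Input (SD, n = 8) and 2.27 ± 0.614 CPM in Trap (SD, n = 24). P2ry1 was called higher in Trap, whereas P2ry14 and 3 of these 4 other receptors were called lower.

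The ATP-gated channels P2rx4 and P2rx7 are neighbours on chromosome 5 (chr5:122707544-122729738 and chr5:122643911-122691432), and neither was enriched in Trap. P2rx4, studied widely in spinal microglia after nerve injury, measured 9.27 to 13.7 CPM in Trap (median 11.3) and 13.03 to 16.3 CPM in Input (median 15.5). Of the 24 Trap libraries 22 were below all Input libraries, a log2 difference of -0.44 ± 0.061 (adjusted p = 4.79e-08 with edgeR). P2rx7, which opens at high ATP, measured 7.59 to 14.6 CPM in Trap (median 9.79) and 7.64 to 9.81 CPM in Input (median 9.21). Its libraries overlapped, and the log2 difference was 0.10 ± 0.082 (95% interval -0.06 to 0.27; adjusted p = 0.229 with edgeR). The part of RNA from other cells in the Trap levels of P2rx4 and P2rx7 was not tested. The other P2X receptors went lower: all 3 that were tested (of 5 with a row) were lower in Trap, beside 43.7% of all genes tested. P2rx5 was lower by -3.59 ± 0.130, P2rx3, a channel of sensory neurons, by -2.06 ± 0.182 and P2rx6 by -1.48 ± 0.069.

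The adenosine receptors differed from each other in how far the pull-down enriched them. Adora2b, a Gs-coupled receptor of low affinity (chr11:62248984-62266453), measured 58.6 to 75.3 CPM in Trap (median 67.5) and 6.11 to 8.98 CPM in Input (median 6.68), with no overlap and a log2 difference of 3.21 ± 0.065. Adora1, the Gi-coupled receptor that lowers transmitter release from neurons (chr1:134199223-134235431), measured 302.8 to 424.3 CPM in Trap (median 356.6) and 187.9 to 247.0 CPM in Input (median 205.8). Its libraries did not overlap either, but the log2 difference was 0.74 ± 0.048. Adora2a, a Gs-coupled receptor (chr10:75316877-75334784), stayed low with 0.865 to 2.29 CPM in Trap (median 1.70) and 0.456 to 1.49 CPM in Input (median 0.866), the ranges overlapped, and the log2 difference was 0.90 ± 0.164. Adora3, the other adenosine receptor, did not pass the filter on low counts in this comparison.

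Per kilobase of exon, the ratio of Adora1 to Adora2b within a library averaged 1.72 ± 0.160 in Trap (SD, n = 24) and 9.57 ± 1.36 in Input (SD, n = 8). Adora2b made up 36.7% ± 2.30 of the summed level of the 3 adenosine receptors per kilobase in Trap and 9.53% ± 1.26 in Input, and the ranges, 33.5% to 43.5% and 7.88% to 11.8%, did not overlap. Adora1 shares 1162 exon bases with Mybph on the opposite strand, a gene with a mean of 5.09 counts per library. Of the Adora1 values 96.88% were not whole, and which genes shared those reads was not traced.

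The enzymes that produce and remove adenosine were placed differently. Entpd2, an ectonucleotidase that turns ATP mainly into ADP (chr2:25395874-25401321), had the largest difference of the 10 genes: 107.5 to 201.3 CPM in Trap (median 154.9), 10.8 to 15.03 CPM in Input (median 12.9), and a log2 difference of 3.53 ± 0.078 (adjusted p = 8.92e-31 with edgeR), above 99.7% of all genes tested. Entpd2 shares 612 of its 2128 exon bases with Npdc1 on the same strand, a gene averaging 1798 counts per library. Only 3.125% of the Entpd2 values were not whole, so there was little sign of reads split between genes. Whether reads of the shared bases were counted for the right gene was not tested. Nt5e, the enzyme that turns extracellular AMP into adenosine (chr9:88327197-88372092), was lower in Trap, at 1.51 to 4.32 CPM (median 2.66) against 3.28 to 5.58 CPM in Input (median 4.32), with overlapping ranges and a log2 difference of -0.75 ± 0.124 (adjusted p = 9.69e-07 with edgeR). Adk (chr14:21052574-21448569) measured 291.4 to 373.8 CPM in Trap (median 339.4) and 55.0 to 63.8 CPM in Input (median 56.7), a log2 difference of 2.51 ± 0.042. Adk also varied least between the Trap libraries, with a coefficient of variation of 5.84%, while Nt5e varied by 28.4% at 28 to 83 counts per library.

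Per kilobase of exon, the ratio of Entpd2 to Nt5e within a library averaged 258 ± 78.2 in Trap (SD, n = 24; median 241.4). In Input it averaged 12.8 ± 3.00 (SD, n = 8; median 12.5). The order of the levels per kilobase in Trap was Entpd2 (72.6 ± 8.80 CPM per kilobase), Adora1 (62.7 ± 4.53), Adk (39.8 ± 2.32), Adora2b (36.6 ± 2.42), P2ry1 (19.3 ± 2.00), P2rx7 (1.68 ± 0.272), P2rx4 (1.60 ± 0.191), Adora2a (0.541 ± 0.133), Nt5e (0.303 ± 0.086) and P2ry14 (0.017 ± 0.011; SD, n = 24 for each). Not all neighbours in this order were separated: Entpd2 was above Adora1 in 19 of 24 libraries, Adk above Adora2b in 21 and P2rx7 above P2rx4 in 12. Each of the other neighbours kept its order in 23 or 24 libraries. In Input Adora1 came first with 36.6 ± 4.37 CPM per kilobase (SD, n = 8), 5.38 times the next gene, Adk. Lengths are those of all annotated exons of a gene, which may exceed the transcripts in use.

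**Figure D2:**
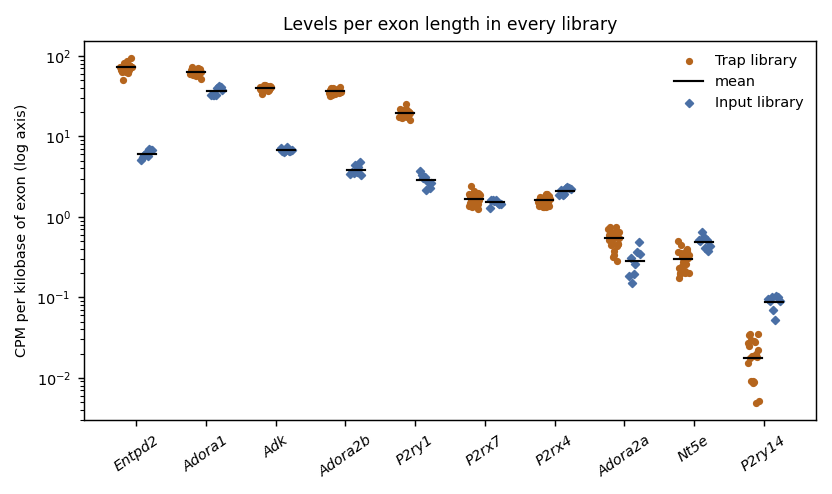
CPM per kilobase of annotated exon on a log axis, 1 point per library (24 Trap, 8 Input) and a bar at the mean, in the order of the Trap means. The 3 Trap libraries with P2ry14 at 0 cannot be drawn on this axis. 5 genes, Entpd2 to P2ry1, lie at 15.9 or higher in each Trap library, and the other 5 at 2.45 or lower.

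The rest of the pathway was split in the same comparison, in which 44.4% of all genes tested were higher and 43.7% lower in Trap. Among other ectonucleotidases 3 of 10 tested were higher and 6 lower in Trap. Alpl, an alkaline phosphatase that can remove all phosphates of a nucleotide, was higher by 3.59 ± 0.095 on the log2 scale, from 6.19 ± 1.34 CPM in Input (SD, n = 8) to 76.2 ± 11.3 in Trap (SD, n = 24). Entpd3 was lower by -4.62 ± 0.087, the largest difference of its list, and Acpp, an acid phosphatase of nociceptive neurons, by -2.82 ± 0.277. Of the ATP release genes 3 of 4 were higher and Panx1, a release channel, was lower by -3.83 ± 0.094. Gja1, the main gap junction connexin of astrocytes, was higher by 3.40 ± 0.060 and Lrrc8a, a subunit of volume-regulated anion channels, by 1.94 ± 0.070.

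Of the nucleoside transporters 3 of 4 tested were higher, with Slc29a1 at 2.09 ± 0.082 and Slc29a3 at 2.03 ± 0.095, and Slc29a4 was lower at -3.91 ± 0.105. Other enzymes of adenosine and AMP were higher in 14 and lower in 6 of 22 tested. Pnp, which splits purine nucleosides, was higher by 2.71 ± 0.080, while the adenylate kinase Ak5 and the salvage enzyme Hprt were lower by -4.14 ± 0.095 and -3.47 ± 0.103. Of 13 purine synthesis genes 7 were higher and 5 lower, with Paics at 1.67 ± 0.037, Impdh1 at -3.89 ± 0.096 and Adssl1 at -1.97 ± 0.102. The median log2 difference over all genes tested was 0.02. Over all genes 44.4% were higher and 43.7% lower, and no list was tested against these shares.

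**Figure D3:**
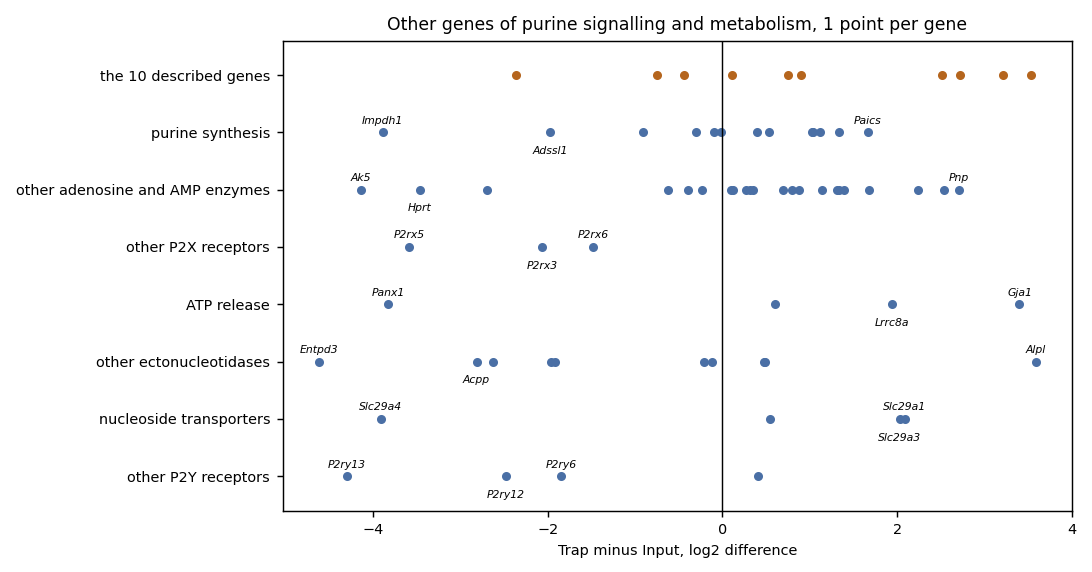
Trap minus Input log2 difference of each tested gene of the 10 described genes and of 7 other lists of purine genes, 1 point per gene, with up to 3 called genes of largest difference named in each list. The receptor lists other than the 10 genes lie mostly below 0, and each enzyme, transporter and release list spans both signs.

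The comparisons of each time after fracture with the uninjured state asked whether astrocyte ribosome-bound RNA of these genes changed with injury. None of the 9 genes that passed the filter was called at 3, 5 or 7 weeks in Trap (edgeR, averaged over the sexes), where 0.111% of 15380 genes were called at 3 weeks and 0% at 5 and at 7 weeks. P2ry14 did not pass the filter among the Trap libraries. At an unadjusted p under 0.05 there were 3 of the 9 genes at 3 weeks (Adora1, Adk and Nt5e), beside 8.64% of all genes, and none at 5 or 7 weeks, beside 425 and 438 of all genes. DESeq2 called none of the 9 either, and 135, 1 and 0 of all genes. In a joint test of all 3 times no gene of the 9 was called, beside 0.026% of all genes. The median log2 difference over the 9 genes was 0.06, -0.02 and 0.00 at 3, 5 and 7 weeks, and over all genes it was 0.00 each time.

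**Figure D4:**
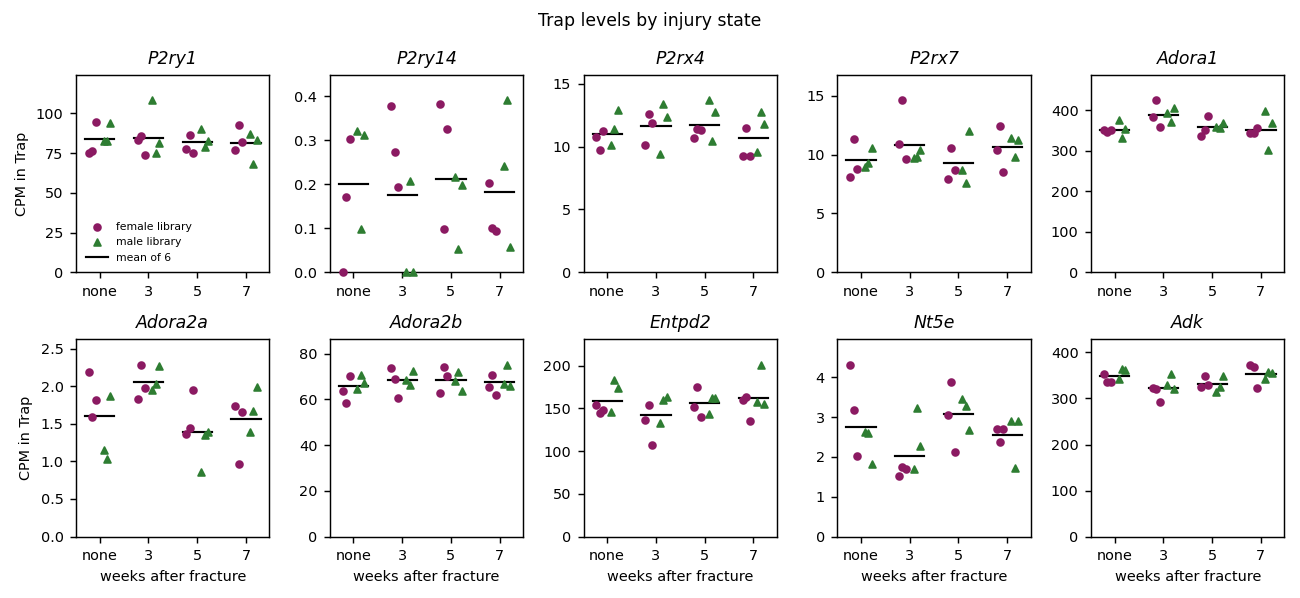
CPM in each Trap library by injury state for the 10 genes, 3 female and 3 male libraries per state with a bar at the mean of 6, on axes starting at 0. The libraries of each state after fracture overlap with the uninjured ones for all 10 genes.

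Adora1 measured 330.4, 351.0 and 374.7 CPM (lowest, median and highest of 6 libraries) without injury and 358.0, 387.5 and 424.3 CPM at 3 weeks. 4 of the 6 libraries at 3 weeks were above all uninjured ones, and the log2 difference was 0.15 ± 0.063 (adjusted p = 0.491 with edgeR). Without the 2 libraries that stood apart it was 0.18 ± 0.050 (adjusted p = 0.102 with edgeR). At 5 and 7 weeks the medians were 356.4 and 349.8 CPM, with log2 differences of 0.03 ± 0.063 and 0.00 ± 0.063.

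Adk measured 335.9, 348.5 and 363.3 CPM without injury and 291.4, 321.7 and 353.4 CPM at 3 weeks. 5 of the 6 libraries at 3 weeks were below all uninjured ones, and the log2 difference was -0.11 ± 0.053 (adjusted p = 0.572 with edgeR). It shrank to -0.09 ± 0.048 without the 2 libraries that stood apart (adjusted p = 0.580 with edgeR). At 5 weeks 4 of 6 were below (median 327.4 CPM, log2 difference -0.07 ± 0.053), and at 7 weeks the median was 355.6 CPM (0.02 ± 0.053). The differences of Adk are the most narrowly bounded of the 9 genes, with a 95% interval of 0.86-fold to 1.00-fold at 3 weeks and 0.94-fold to 1.09-fold at 7 weeks.

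Nt5e measured 1.82, 2.62 and 4.32 CPM without injury and 1.51, 1.73 and 3.23 CPM at 3 weeks, where 4 of 6 libraries were below all uninjured ones. The log2 difference was -0.44 ± 0.212 (95% interval 0.54-fold to 1.00-fold; adjusted p = 0.575 with edgeR). Without female uninjured replicate 1 it was -0.29 (adjusted p = 0.935 with edgeR), and over 32 alternatives it ran from -0.57 to -0.29. The 3 female libraries held 2.02, 3.18 and 4.32 CPM without injury and 1.51, 1.69 and 1.74 CPM at 3 weeks. The 3 male libraries held 1.82, 2.60 and 2.63 CPM without injury and 1.71, 2.27 and 3.23 CPM at 3 weeks. The log2 difference was -0.93 ± 0.299 in females (adjusted p = 0.310 with edgeR) and 0.05 ± 0.296 in males (adjusted p = 1 with edgeR). In females it ran from -1.17 to -0.63 over 32 alternatives, and -0.63 was the value without female uninjured replicate 1. Neither was called, beside 0.039% of all genes called in females and 0% in males. The difference between the sexes was 0.98 ± 0.423 on the log2 scale and was not called either (adjusted p = 0.9999 with edgeR), beside 0% of all genes called, 398 at an unadjusted p under 0.05 and 1 with DESeq2. By 5 and 7 weeks the medians over both sexes were 3.17 and 2.70 CPM.

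Markers of mural and fibroblast cells, which are known to carry Nt5e, were read beside it. The summed level of 12 mural and meningeal fibroblast markers was 281.1 to 367.7 CPM in the female uninjured and 198.6 to 305.2 CPM in the female 3 weeks Trap libraries and 274.9 to 278.6 and 249.2 to 269.5 CPM in males. Most of this sum is Col1a2 (222.1 CPM on average in Trap) and Pdgfrb (40.2 CPM), which with Col1a1 are the 3 markers of the list that were higher in Trap than in Input. The other 9 markers, taken apart after the values were seen, summed to 12.8 to 13.7 CPM in the female uninjured and 12.97 to 18.2 CPM in the female 3 weeks libraries, with medians of 13.7 and 17.4 CPM and overlapping ranges. Their part in the level of Nt5e was not tested. In bulk libraries fewer cells of a type and less RNA per cell cannot be told apart. With the 2 libraries that stood apart left out, the difference of Nt5e in females was -0.95 ± 0.336.

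Adora2a measured 1.03, 1.70 and 2.19 CPM without injury, 1.84, 2.01 and 2.29 CPM at 3 weeks, 0.865, 1.38 and 1.95 CPM at 5 weeks and 0.959, 1.66 and 1.99 CPM at 7 weeks. All 6 libraries at 3 weeks were above the uninjured median, but only 2 above all uninjured libraries, and the log2 difference was 0.37 ± 0.191 (adjusted p = 0.616 with edgeR). These values rest on 16 to 47 counts per library, and the 95% interval at 3 weeks ran from 0.98-fold to 1.70-fold. By sex, female libraries held 1.59, 1.82 and 2.19 CPM without injury and 1.84, 1.98 and 2.29 CPM at 3 weeks. Male libraries held 1.03, 1.155 and 1.87 CPM without injury and 1.95, 2.03 and 2.27 CPM at 3 weeks. Adora2a was called in neither sex, beside 0.039% of all genes called in females and 0% in males.

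Entpd2 measured 144.3, 151.0 and 182.7 CPM without injury and 107.5, 145.3 and 163.8 CPM at 3 weeks, a log2 difference of -0.15 ± 0.090. Its lowest value, 107.5 CPM, was that of female 3 weeks replicate 3, and without the 2 libraries that stood apart the difference was -0.08 ± 0.072. At 5 and 7 weeks the medians were 156.9 and 158.5 CPM, with differences of -0.02 ± 0.090 and 0.04 ± 0.090. The difference at 7 weeks was -0.03 ± 0.072 without the 2 libraries.

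P2ry1, Adora2b, P2rx4 and P2rx7 showed no called difference, and their medians stayed close across states. P2ry1 had medians of 82.6 CPM without injury and 82.2, 80.6 and 82.3 CPM at 3, 5 and 7 weeks. Adora2b had 65.7 CPM and then 68.7, 69.0 and 66.3 CPM, and its 95% interval at 3 weeks was -0.08 to 0.20 on the log2 scale. P2rx4 had 10.99 CPM and then 12.1, 11.4 and 10.5 CPM. P2rx7 had 9.13 CPM and then 10.1, 8.72 and 10.8 CPM, with all 6 libraries at 3 weeks above the uninjured median and a log2 difference of 0.19 ± 0.131. That difference was 0.25 ± 0.130 without the 2 libraries that stood apart (adjusted p = 0.527 with edgeR). P2ry14 had medians of 0.236, 0.201, 0.208 and 0.152 CPM, and a change at this depth of 0 to 7 counts was not detectable.

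**Figure D5:**
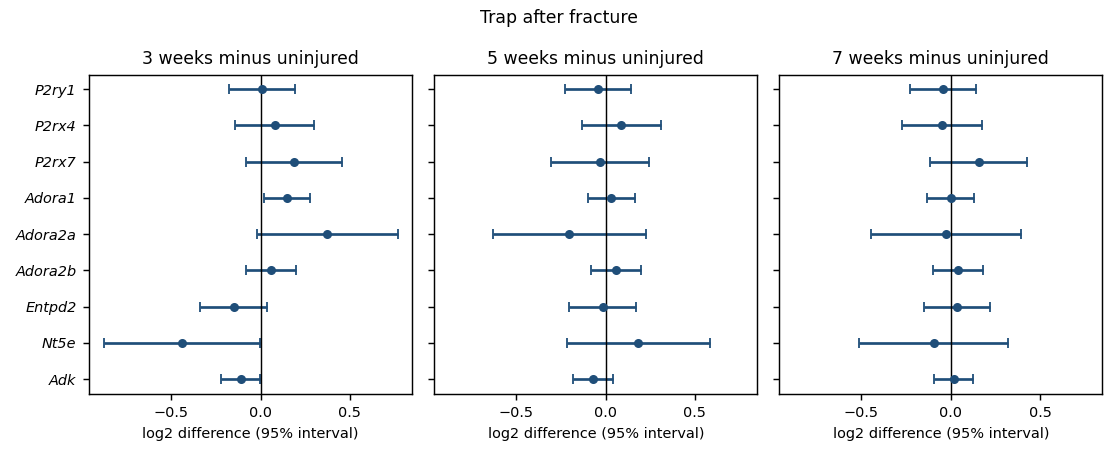
Log2 difference of each time after fracture against uninjured among the Trap libraries with its 95% interval, for the 9 genes tested. Adora1, Adk and Nt5e at 3 weeks have intervals that just leave out 0 before adjustment, and the intervals of Nt5e and Adora2a are the widest.

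Of the other purine genes, 1 was called in a Trap comparison with the uninjured state. Gja1 had 2739, 2906 and 3117 CPM (lowest, median and highest of 6) without injury and 2101, 2291 and 2640 CPM at 3 weeks, with no overlap, and fell by 0.33 on the log2 scale (SE 0.064; adjusted p = 0.0267 with edgeR). Over 32 alternatives the difference ran from -0.37 to -0.29, and the adjusted p was 0.000364 with DESeq2 and, with edgeR, 0.00442 with the replicate block within each sex and 0.0175 without the 2 libraries that stood apart. The call was lost when any 1 of 10 libraries was left out (adjusted p 0.0505 to 0.165): uninjured female 1 and 2, uninjured male 1, 2 and 3, 3 weeks female 2, 3 weeks male 1 and 2, 5 weeks male 2 and 7 weeks female 1. None of the 4 P2Y, 3 P2X, 9 ectonucleotidase, 21 adenosine and AMP enzyme, 4 nucleoside transporter and 13 purine synthesis genes tested was called at any of the 3 times.

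In the Input libraries, 2 per state, none of the 10 genes was called at 3, 5 or 7 weeks (edgeR with sex as a term), beside 1.08%, 0.107% and 0.214% of 16803 genes. At an unadjusted p under 0.05 there was 1 of the 10 genes at each time, and DESeq2 called none of the 10. Adk held 61.8 CPM in the female and 63.8 CPM in the male uninjured library and 55.5 and 56.7 CPM at 3 weeks. The log2 difference of Adk was -0.18 ± 0.066 (adjusted p = 0.225 with edgeR). It was 55.0 and 56.3 CPM at 5 weeks and 56.7 and 58.3 CPM at 7 weeks. Entpd2 held 10.8 and 12.1 CPM without injury and 13.3 and 14.5 CPM at 7 weeks, a difference of 0.29 ± 0.118 (adjusted p = 0.764 with edgeR).

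Other purine genes called in Input were Gja1 and Ak3 at 3 weeks and Entpd4 at 7 weeks. Gja1 fell from 246.5 and 291.9 CPM to 195.8 and 250.1 CPM, so that the 2 states overlapped, with a log2 difference of -0.29 ± 0.055 (adjusted p = 0.0148 with edgeR). Ak3, a mitochondrial adenylate kinase, fell from 116.6 and 125.5 CPM to 93.3 and 104.6 CPM (-0.31 ± 0.066), and Entpd4, an intracellular nucleotidase, rose from 45.4 and 52.9 CPM to 60.6 and 67.5 CPM (0.40 ± 0.069). Each call rests on 2 libraries against 2. It was lost for Gja1 without the uninjured female, the uninjured male or the 3 weeks male library, for Ak3 without the uninjured female, 3 weeks female, 3 weeks male, 5 weeks female or 5 weeks male library, and for Entpd4 without any 1 of the uninjured or 7 weeks libraries. Adjusted p then reached 0.259, 0.490 and 0.197.

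Between the sexes, none of the 9 genes tested was called among the Trap libraries, beside 0.195% of all genes. The largest difference relative to its error was that of Entpd2, with 107.5, 150.0 and 174.9 CPM (lowest, median and highest of 12) in females and 132.8, 160.9 and 201.3 CPM in males, a log2 difference of 0.13 ± 0.064 (adjusted p = 0.506 with edgeR). It was 0.07 ± 0.051 without the 2 libraries that stood apart. With the replicate numbers of each sex as a term the value was -0.05, but that fit compares the sexes only in the libraries numbered 1.

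Among the Input libraries 3 of the 10 genes were called between males and females, a comparison added after its values were seen. Adora1 held 187.9 to 189.9 CPM in 4 female and 221.8 to 247.0 CPM in 4 male libraries (log2 difference 0.26 ± 0.037). P2ry1 held 13.05 to 15.8 CPM in females and 9.24 to 11.6 CPM in males (-0.49 ± 0.095), and Nt5e 4.26 to 5.58 and 3.28 to 4.38 CPM (-0.39 ± 0.149). In this comparison 46.2% of all genes were called, so the count is no higher than the background and is no result about these genes. The call of Nt5e was lost without the filter, with DESeq2, and without the female uninjured, female 5 weeks, female 7 weeks, male uninjured, male 5 weeks or male 7 weeks library (adjusted p 0.0508 to 0.256). Leaving out the female or male 3 weeks library added Adora2a, from 0.73 ± 0.315. Among the Trap libraries the difference of Adora1 was 0.01 ± 0.045 and that of P2ry1 0.05 ± 0.063. Sex and any separate handling of male and female Input samples cannot be told apart here.

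The 7 genes with a mean of at least 5 CPM in Trap were compared with each other and with 10115 genes of that level across the 24 Trap libraries, as Pearson's r of log2 CPM. The libraries share depth and composition effects, so r is a description. Among 21 pairs of the 7 genes r ran from -0.40 to 0.73 with a median of 0.17. The highest was that of Entpd2 with Adk, the enzymes at the ends of the pathway (0.73, and 0.60 over 22 libraries without the 2 that stood apart). The lowest was that of Adora1 with Adk (-0.40, and -0.47 without the 2). P2rx4 and P2rx7, neighbours on the chromosome, had r of 0.20.

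The genes most like Entpd2 were Hadhb (r = 0.93), Abhd3 (0.90) and Ctsd (0.89), and r was 0.85, 0.80 and 0.78 without the 2 libraries. Adk was nearest to Arl6ip1 (0.84), Serpine2 (0.81) and Ttc12 (0.80), and Adora1 to Itpkb (0.81), Glis2 (0.80) and Mvb12b (0.80). P2ry1 was nearest to Dnmt3a (0.80), Abcg4 (0.79) and Tmem201 (0.76), and Adora2b to G6pc3 (0.73), B9d2 (0.71) and Rnf215 (0.71). The channels had weaker likeness, P2rx4 with Fam210b (0.66), Foxb1 (0.66) and Twistnb (0.65) and P2rx7 with Cyp4f17 (0.68), Lgi4 (0.66) and Mfsd13a (0.65). All these values are maxima over 10115 genes.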

How the data were processed

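Ribosome-bound RNA (Trap) and whole-tissue RNA (Input) of mouse lumbar spinal cord were measured in 24 and 8 poly-A libraries. The authors deposited RSEM estimated counts (expected counts) per Ensembl gene; per the submitters' processing notes FastQC, Trim Galore, STAR, RSEM and GRCm38 were used, and versions, annotation release and strand setting are not given in the sources used here. Reads that match several genes are split between them by RSEM. Of a library's values 6.21% to 8.53% were not whole, and all were rounded here. Identifiers were matched to symbols without their version for 55141 genes; 797 without a symbol took 0.301% of the counts. Coordinates and exon lengths are from GENCODE M21 on GRCm38 and promoter windows from RefSeq. Groups follow the labels, and all 32 libraries fit their labelled sex.

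The tests used edgeR 4.0.16 under R 4.3.3 (low counts removed by filterByExpr, TMM, robust quasi-likelihood fit, 2-sided, Benjamini-Hochberg over all genes tested; a call is an adjusted p under 0.05). The 24 Trap libraries had a mean per sex and state (15380 genes, 16 residual degrees of freedom), Trap against Input had sex and state as terms (15913 genes, 26), and the 8 Input libraries likewise (16803 genes, 3). Alternatives were DESeq2 1.42.0 and its size factors, no filter, only the groups compared, replicate blocks, a carry-over index (markers of 4 other cell types over astrocyte markers) as a covariate, and leaving out libraries. Replicate libraries of a group differed by more than counting noise (chi-square per degree of freedom 7.47 to 89.3 over 24 pairs), so none was counted as a duplicate.

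All 10 genes were named in Trap against Input and in the fracture comparisons of Trap averaged over the sexes. In the other comparisons values were given for some of them only, and the counts of calls cover all that were tested. Other purine genes were named where called in a fracture or sex comparison within Trap or by fracture in Input, or among the 3 of their list with the largest called Trap to Input difference. The 3 most alike genes leave out predicted models. Members and lists were chosen with earlier results of these data known. A withheld item is not reported here.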

Additional observations from a re-analysis of the deposited data

Results flagged for a closer look

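In 2 of 40 groups of 6 Trap libraries (10 genes, 4 states) the most extreme library lay apart from the others by more than Dixon's 95% value for the gap over the range, 0.625. Chance gives about 1 in 20. P2ry1 measured 108.1 CPM in male 3 weeks replicate 1 and 73.6 to 85.8 CPM in the other 5 libraries at 3 weeks (gap over range 0.647). P2rx7 measured 14.6 CPM in female 3 weeks replicate 2 and 9.67 to 10.9 CPM in the other 5 (0.760). No difference of a fracture effect between the sexes was called for any of the 9 genes tested.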

How the results depend on the processing

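The number of the 10 genes called stayed within 1.5 times in each comparison under each alternative run, and 0 stayed 0 after fracture and between the sexes in Trap. A sign change counts as a reversal where the value exceeds its SE before or after, and there were 5 among 2847 values (81 others changed sign near 0). These were Entpd2 between the sexes in Trap with the replicate block within each sex, an alternative added after seeing the data (-0.049), P2rx7 in Trap against Input with the replicate block and only libraries numbered 1 (-0.0017), and in Input P2ry14 at 5 weeks without the male uninjured library (-0.00054; range leaving out 1 library to 1.03), Adora2a at 5 weeks without the male 5 weeks library (-0.31; to 0.906) and P2ry1 at 7 weeks without the male uninjured library (-0.18; to 0.257). With the block within each sex, the comparison of males with females rests only on the libraries numbered 1. That Entpd2 value covers only these libraries. The cause of the other reversals was not tested. With DESeq2's size factors the median of all genes in Trap against Input moved by -0.10 and the level of Adk in Input became 62.3 CPM. Relative to the median of all genes, Entpd2 was at 3.51 and P2rx7 at 0.08 with either scaling.

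The labels do not say what a replicate number shares, though most column headers of 1 number and sex carry a common prefix. Deviations of libraries of the same number and sex had a median r of 0.06, above 0.1 in 7 of 36 pairs. For different numbers of the same sex the median r was -0.03, above 0.1 in 1 of 72 pairs. Of 24 libraries 14 correlated best with their own number. Between the sexes r was above 0.1 in 0 of 48 pairs of the same number and in 6 of 96 pairs of different numbers. These values hint at most that libraries of a number and sex share something. The labels do not say so, and the main fit did not pair the samples by number, with the blocks given as alternatives. With the replicate block 44 genes were called at 3 weeks in Trap against 17, and no call among the 10 genes changed. Counts of all genes called at 3 weeks were also 34 without the filter, 135 with DESeq2, 46 with the carry-over covariate, 106 without 2 libraries, 80 with the block within each sex and 3 to 57 leaving out 1 library. Between the sexes in Trap 30 became 93 with DESeq2, 48 with the covariate, 46 without 2 libraries and 13 with the block within each sex. The 13 again compares the sexes only in the libraries numbered 1. The joint test of all times called 4, and 71, 17, 35 and 40 in the same order, 23 without the filter and 9 with the block. Females at 3 weeks gave 6, and 69, 17, 44 and 60, 25 without the filter, 20 with the block and 15 with only the groups compared. In Input leaving out 1 library gave 34 to 346 at 3 weeks, 7 to 49 at 5 and 16 to 50 at 7. Depth limits P2ry14, Adora2a and Nt5e, at most 83 counts in a Trap library.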
